A study of Homo sapiens with 8 samples.

Results

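The genes described here copy the genome and supply its building blocks, and they were followed in a lung cancer line treated with 2 signalling inhibitors and with an amino acid alcohol that mimics histidine shortage. They are 49 of 19775 genes measured, chosen by name and not by a threshold on their values. Earlier results of these data were known at that choice, so the directions of the 49 genes are no independent support. Each was read from the probe set that maps to its symbol alone and has the highest mean over the arrays. By role they comprise 10 origin licensing genes, 6 origin firing genes, 17 genes of the replication fork, 4 genes of nucleotide supply, 6 genes of chromatin duplication, 3 genes of checkpoint control, protein turnover and repair, and 3 E2F transcription factors. All 49 were measured, and no filter on dim signals was applied.

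RNA of NCI-H1975, an established human lung adenocarcinoma line with a mutant EGFR and a mutant PIK3CA, was hybridised to 8 Affymetrix U133 Plus 2.0 arrays. Cells were treated for 24 h with vehicle, with 10 nM osimertinib, an EGFR tyrosine kinase inhibitor, with 1 µM alpelisib, an inhibitor of the alpha isoform of PI3K, or with both drugs. All 4 drug treatments were done in the absence and in the presence of L-histidinol (2 mM), which blocks the charging of histidine tRNA, so that each of the 8 conditions is 1 array. All groups are the same line, so they share its mutations.

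Replication starts when the origin recognition complex, CDC6 and CDT1 load the MCM2 to MCM7 ring on DNA in G1 (licensing). CDC45 and the GINS complex then turn the ring into a running helicase (firing), and polymerases, the PCNA clamp and its loader RFC follow it along the fork. Most of these genes are transcribed late in G1 by E2F factors, which are freed when cyclin-dependent kinases act on the retinoblastoma protein, a step that growth factor signalling through EGFR and PI3K feeds.

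Values are log2 of the deposited signal intensity, so that 1 unit is a 2-fold change, and levels of different genes are not compared because probe sets differ in brightness. With 1 array a condition, each drug difference was fitted over the array pair without and with L-histidinol, and the spread is the departure from the sum of a drug effect and an L-histidinol effect, which includes any real interaction. The labels do not name separate cultures, so p-values measure only the spread between these arrays, and their small number limits the precision. A gene is called lower or higher at an adjusted p below 0.05 (limma, Benjamini-Hochberg over all genes). Median intensity over all 54675 probe sets lay between 21.8 and 22.4 on the 8 arrays. Centring each array on another median, that of the 19775 genes, would move the median difference of all genes to -0.13 for the combination against vehicle. Epithelial markers were bright (mean log2 of 11.8 for KRT8 and 12.2 for EPCAM) and the 9 markers of blood, stromal and endothelial cells lay between 2.17 (LUM) and 9.14 (COL1A1), with CD79A at 6.29, PECAM1 at 5.18, CD3E at 4.73, VWF at 3.96, COL3A1 at 2.83, PTPRC at 2.82 and LYZ at 2.48. COL1A1 read 8.12 to 8.79 on arrays without and 9.39 to 10.1 on arrays with osimertinib, and LUM 1.48 to 2.02 and 2.17 to 2.91; their part in the osimertinib results was not tested.

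**Figure D1:**
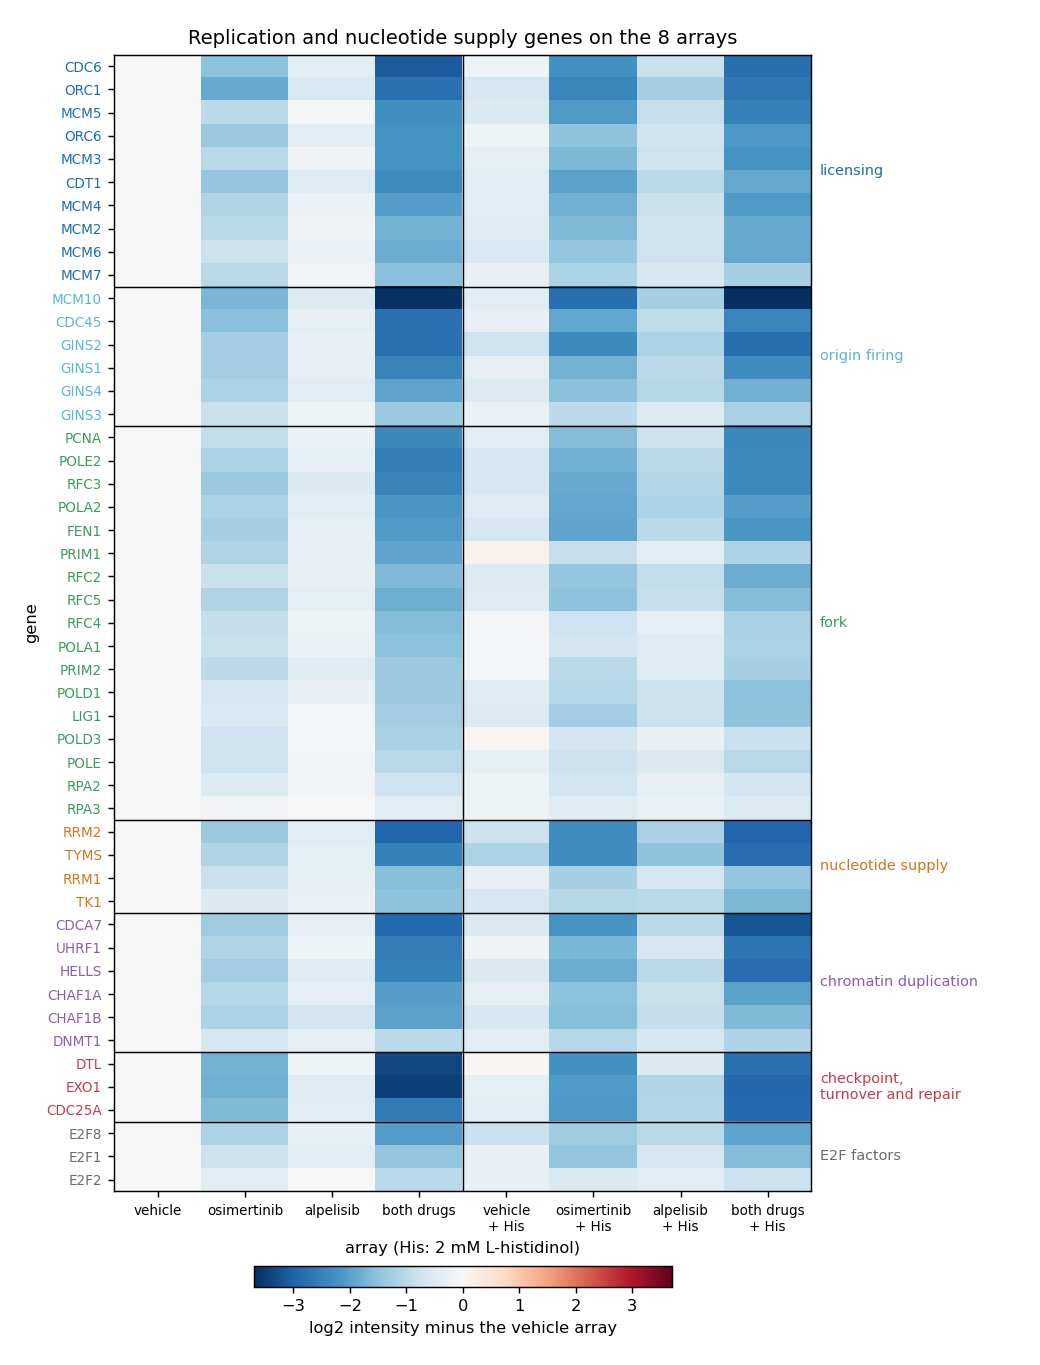
Log2 intensity of each of the 49 genes minus its value on the vehicle array without L-histidinol, for the 8 arrays in columns, with genes in rows grouped by role. Blue is lower and red is higher; both columns with both drugs are the darkest for most genes, and MCM10, the darkest row, differs by -3.65 between both drugs and vehicle without L-histidinol.

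Upstream sequence was examined because E2F factors read short promoter letters. RefSeq promoters (GRCh38.p14, 250 bases before to 50 after the start) were found for 42 of the 49 genes. The letters TTTCCCGC, TTTCGCGC, TTTGCCGC or TTTGGCGC stood on either strand in 26 of these 42 promoters (61.9%), against 3.33% of 27305 promoters of the table and 4.36% of 15384 promoters of genes tested here. By role they were in 6 of 8 licensing, 3 of 5 firing, 7 of 14 fork, 1 of 4 nucleotide supply, 4 of 6 chromatin, 3 of 3 checkpoint and repair, and 2 of 2 E2F promoters. CCAAT stood in 23 of 42 (54.8%, against 35.7% of all promoters), and TTTGAA, the letters of the cell cycle homology region, in 1 of 42 (2.38%, RRM1, against 15.4%). A match is a description of these windows only.

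The 110 bases before the start are shown for 1 gene or more of each role, with the E2F letters in capitals, in the strand of the gene. MCM6 (chr2:135876444-135876553, minus strand) holds a pair of overlapping matches, one on each strand. GINS2 (chr16:85688955-85689064, minus strand) and PCNA (chr20:5126623-5126732, minus strand) share GCGGGAAA, the reverse complement of TTTCCCGC, with TYMS (chr18:657543-657652, plus strand) and UHRF1 (chr19:4909391-4909500, plus strand). POLA2 (chr11:65261852-65261961, plus strand) and CDC25A (chr3:48188418-48188527, minus strand) carry 1 match each, and E2F1 (chr20:33686386-33686495, minus strand) has its own family's letters at 2 places. MCM10 (chr10:13161448-13161557, plus strand) and RRM2 (chr2:10122629-10122738, plus strand), the firing and the nucleotide supply gene with the largest falls, are shown because neither window holds these letters.
MCM6: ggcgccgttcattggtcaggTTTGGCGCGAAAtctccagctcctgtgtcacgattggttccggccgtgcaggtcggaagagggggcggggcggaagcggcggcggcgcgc
GINS2: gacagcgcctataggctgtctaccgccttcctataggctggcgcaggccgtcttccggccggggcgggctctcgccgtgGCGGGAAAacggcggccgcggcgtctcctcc
PCNA: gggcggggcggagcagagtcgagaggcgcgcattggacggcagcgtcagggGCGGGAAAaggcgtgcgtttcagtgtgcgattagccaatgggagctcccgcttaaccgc
POLA2: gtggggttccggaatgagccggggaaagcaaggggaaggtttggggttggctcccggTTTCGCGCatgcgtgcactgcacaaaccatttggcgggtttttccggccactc
TYMS: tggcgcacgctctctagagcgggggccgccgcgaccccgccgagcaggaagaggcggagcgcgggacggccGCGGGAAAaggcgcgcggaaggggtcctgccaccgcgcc
UHRF1: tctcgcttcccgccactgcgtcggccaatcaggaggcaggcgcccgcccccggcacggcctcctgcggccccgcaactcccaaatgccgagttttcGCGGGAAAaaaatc
CDC25A: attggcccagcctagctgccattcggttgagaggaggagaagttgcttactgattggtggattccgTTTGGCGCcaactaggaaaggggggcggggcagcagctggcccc
E2F1: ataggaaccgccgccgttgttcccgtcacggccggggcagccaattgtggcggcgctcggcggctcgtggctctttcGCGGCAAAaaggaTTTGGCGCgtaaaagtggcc
MCM10: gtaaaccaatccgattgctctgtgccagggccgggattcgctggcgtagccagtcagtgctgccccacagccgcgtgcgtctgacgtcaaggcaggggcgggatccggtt
RRM2: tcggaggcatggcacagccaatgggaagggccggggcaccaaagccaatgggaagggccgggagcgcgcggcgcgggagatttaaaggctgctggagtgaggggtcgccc
For the combination against vehicle, the 26 genes with the letters had a median fitted change of -2.06 (from -3.11 to -0.76) and the 16 genes with a promoter but without them -1.56 (from -3.46 to -1.22). The ranges overlapped.

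Osimertinib with alpelisib lowered all 49 genes, with a median change of -1.82, and 44 of them by 2-fold or more (all genes, median 0.00, 19.2% called lower). Osimertinib alone lowered 48 of 49, with a median of -1.10 and 30 at 2-fold or more (14.0% of all genes called lower). Alpelisib alone lowered 7 of 49, MCM10, ORC6, CDC25A, HELLS, CDCA7, DNMT1 and PRIM2, with a median of -0.34 (4.38% of all genes called lower). No gene of the 49 was called higher with any drug treatment, and the fitted changes of all 49 lay below 0 with alpelisib too. These comparisons share the vehicle arrays. In bulk RNA, fewer cells in S phase and less of these RNAs per cell cannot be told apart. Of 8 proliferation markers and cyclins listed beside these genes, all 8 fell with osimertinib (median -0.90) and with both drugs (-1.69) and 0 were called with alpelisib (-0.34); their part in the result was not tested.

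The alpelisib count moves most with the arrays and the model. For the fit with all 2-way terms given here, the variance prior was estimated on that fit, which has 1 residual degree of freedom. It was 0 without the alpelisib array that had L-histidinol, 2 without the alpelisib array that lacked it or without the vehicle array that lacked it, 38 when 1 or the other combination array was left out, 26 with arrays centred on their median and 43 in a fit with all 2-way terms. The share of all genes called lower was 0.0303% in the first of these fits, 0.657% and 1.10% in the next, 6.65% and 6.69% without a combination array, 10.1% with centring and 11.9% with all 2-way terms. The counts for osimertinib (45 to 49) and for the combination (49 each time) changed little when any 1 array was left out.

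**Figure D2:**
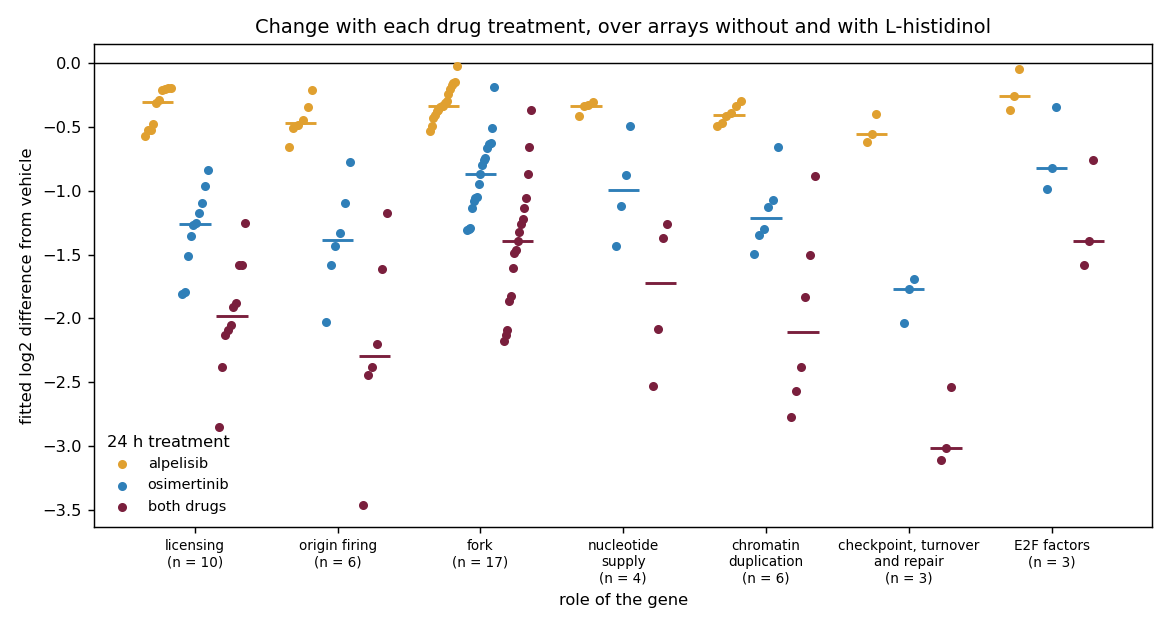
Fitted log2 difference from vehicle (vertical axis) for each gene, by role (horizontal axis, number of genes in brackets), with alpelisib in yellow, osimertinib in blue and both drugs in dark red; short lines are medians. In each role the median falls from alpelisib to osimertinib to both drugs, for example from -0.30 to -1.26 to -1.98 in licensing genes.

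Licensing genes load the helicase, and all 10 fell with osimertinib (median -1.26, 8 at 2-fold or more) and with both drugs (median -1.98, all 10 at 2-fold or more). With alpelisib 1 of 10, ORC6, was called lower, against 4.38% of all genes. Without L-histidinol CDC6 read 8.80 with vehicle, 7.27 with osimertinib, 8.41 with alpelisib and 5.71 with both drugs, and with L-histidinol 8.63, 6.56, 7.97 and 6.01 in the same order. CDC6, the loading ATPase, was thus lowest on the combination arrays, which did not overlap with any other array, and fell by 2.85 ± 0.18 with both drugs (limma adjusted p = 3.04e-07). ORC1 read 7.01 and 6.36 on the vehicle arrays without and with L-histidinol, 5.16 and 4.59 on the osimertinib arrays, 6.44 and 5.79 on the alpelisib arrays and 4.26 and 4.36 on the combination arrays. ORC1, the largest subunit of the origin recognition complex, fell by 1.81 ± 0.17 with osimertinib and by 2.38 ± 0.17 with both drugs, and the osimertinib array with L-histidinol came close to the combination arrays.

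The MCM5 signal was 10.13 with vehicle, 10.09 with alpelisib, 9.16 with osimertinib and 7.84 with both drugs in the absence of L-histidinol, against 9.60, 9.26, 8.03 and 7.63 in its presence. MCM5, a subunit of the ring, stayed within 0.04 of vehicle with alpelisib alone but was 1.32 lower with both drugs than with osimertinib when L-histidinol was absent. Its fitted change was -1.27 ± 0.16 with osimertinib and -2.13 ± 0.16 with both drugs (limma adjusted p = 1.06e-06). Without L-histidinol MCM7 read 10.89 with vehicle, 9.86 with osimertinib, 10.78 with alpelisib and 9.35 with both drugs, and with L-histidinol 10.61, 9.71, 10.30 and 9.65 in the same order. MCM7, another ring subunit, had the smallest fall of the licensing genes, -1.25 ± 0.13 with both drugs. MCM2, MCM3, MCM4, MCM6, ORC6 and the loader CDT1 fell by between 1.58 and 2.09 with both drugs and by between 0.83 and 1.51 with osimertinib.

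All 6 origin firing genes fell with osimertinib (median -1.38) and with both drugs (median -2.29). MCM10 was the only one of them called lower with alpelisib, against 4.38% of all genes. MCM10 read 8.26 and 7.85 on the vehicle arrays without and with L-histidinol, 6.58 and 5.47 on the osimertinib arrays, 7.76 and 7.04 on the alpelisib arrays and 4.61 and 4.58 on the combination arrays. MCM10, which helps to switch the loaded ring on, was the lowest of the 49 with both drugs, -3.46 ± 0.19 (limma adjusted p = 1.52e-07), and its combination arrays lay below all others. Against osimertinib alone the combination lowered it by 1.43 ± 0.19, the largest such fall of the 19775 genes, as seen after the values were known. With alpelisib alone it changed by -0.65 ± 0.19 (adjusted p = 0.0491).

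The CDC45 signal was 8.82 with vehicle, 8.46 with alpelisib, 7.28 with osimertinib and 6.05 with both drugs in the absence of L-histidinol, against 8.53, 7.87, 6.90 and 6.41 in its presence. CDC45, the helicase cofactor, fell by 1.58 ± 0.17 with osimertinib and by 2.44 ± 0.17 with both drugs. Without L-histidinol GINS2 read 9.45 with vehicle, 8.18 with osimertinib, 9.17 with alpelisib and 6.69 with both drugs, and with L-histidinol 8.68, 7.08, 8.28 and 6.67 in the same order. GINS2, a subunit of the GINS ring, fell by 2.38 ± 0.19 with both drugs on the probe set used, and the vehicle and alpelisib arrays did not overlap with the osimertinib arrays. Another probe set named for GINS2, at a mean log2 of 5.39, differed by 0.07 in the same comparison, so the result rests on the brighter probe set. GINS3 read 8.67 and 8.44 on the vehicle arrays without and with L-histidinol, 7.86 and 7.70 on the osimertinib arrays, 8.51 and 8.18 on the alpelisib arrays and 7.29 and 7.47 on the combination arrays. GINS3 had the smallest fall of the firing genes, -1.18 ± 0.11 with both drugs, and GINS1 (-2.20 ± 0.15) and GINS4 (-1.61 ± 0.16) lay between.

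At the fork, all 17 genes fell with osimertinib (median -0.87, 7 at 2-fold or more) and with both drugs (median -1.39, 14 at 2-fold or more). With alpelisib only PRIM2, a primase subunit, was called (-0.41 ± 0.10, limma adjusted p = 0.0220). That is 1 of 17, near the 4.38% of all genes called lower. The PCNA signal was 11.42 with vehicle, 11.22 with alpelisib, 10.52 with osimertinib and 9.05 with both drugs in the absence of L-histidinol, against 11.02, 10.63, 9.82 and 9.04 in its presence. PCNA, the sliding clamp that holds polymerases on DNA, was little below vehicle with alpelisib alone and lowest on both combination arrays, at -2.18 ± 0.12 against vehicle (adjusted p = 1.90e-07). Without L-histidinol RFC3 read 8.59 with vehicle, 7.23 with osimertinib, 8.07 with alpelisib and 6.13 with both drugs, and with L-histidinol 7.97, 6.71, 7.51 and 6.24 in the same order. RFC3, a clamp loader subunit, fell by 1.31 ± 0.15 with osimertinib and by 2.09 ± 0.15 with both drugs.

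POLE2 read 8.45 and 7.80 on the vehicle arrays without and with L-histidinol, 7.31 and 6.67 on the osimertinib arrays, 8.07 and 7.43 on the alpelisib arrays and 5.91 and 6.08 on the combination arrays. POLE2, a subunit of the leading strand polymerase epsilon, fell by 2.13 ± 0.17 with both drugs. The POLA2 signal was 8.36 with vehicle, 7.97 with alpelisib, 7.19 with osimertinib and 6.20 with both drugs in the absence of L-histidinol, against 7.88, 7.21, 6.44 and 6.31 in its presence. POLA2, the regulatory subunit of polymerase alpha, which starts each new strand with primase, fell by 1.86 ± 0.17 with both drugs, and with L-histidinol its osimertinib and combination arrays differed by 0.12. Dim probe sets of POLA2, at a mean log2 of 4.56 and 4.29, differed by -0.33 and 0.03 with both drugs. Without L-histidinol RPA3 read 11.39 with vehicle, 11.28 with osimertinib, 11.41 with alpelisib and 10.98 with both drugs, and with L-histidinol 11.21, 10.96, 11.15 and 10.89 in the same order. RPA3, the smallest subunit of the single strand binding protein RPA, had the smallest fall of all 49, -0.37 ± 0.06 with both drugs (adjusted p = 4.42e-04) and -0.18 ± 0.06 with osimertinib (adjusted p = 0.0424).

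For the other 12 fork genes the fitted change with both drugs ran from -1.82 for FEN1, the flap endonuclease that trims Okazaki fragments, to -0.66 for RPA2. The loader subunits RFC2 (-1.49), RFC5 (-1.47) and RFC4 (-1.39), the primase and polymerase alpha genes PRIM1 (-1.61), POLA1 (-1.32) and PRIM2 (-1.26), and the ligase LIG1 (-1.14) were at 2-fold or more. So were POLD1 (-1.22) and POLD3 (-1.06), subunits of the lagging strand polymerase delta, while POLE, the catalytic subunit of polymerase epsilon, was at -0.87. Another bright probe set for RFC5, at a mean log2 of 8.01, differed by -0.29 with both drugs against -1.47 for the one used.

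The nucleotide supply genes make deoxynucleotides, and all 4 fell with osimertinib (lowest RRM2 at -1.43) and with both drugs (median -1.73). With alpelisib 0 of 4 were called (median -0.33), near the 4.38% of all genes called lower. RRM2 read 12.00 and 11.20 on the vehicle arrays without and with L-histidinol, 10.63 and 9.70 on the osimertinib arrays, 11.57 and 10.80 on the alpelisib arrays and 9.08 and 9.06 on the combination arrays. RRM2, the small subunit of ribonucleotide reductase, was high on the vehicle arrays and lowest on both combination arrays, at -2.53 ± 0.16 or 5.77-fold against vehicle (limma adjusted p = 3.59e-07). The RRM1 signal was 10.36 with vehicle, 10.04 with alpelisib, 9.54 with osimertinib and 8.77 with both drugs in the absence of L-histidinol, against 10.05, 9.70, 9.12 and 8.90 in its presence. RRM1, the large subunit of the same enzyme, fell by less, -1.37 ± 0.11 with both drugs.

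Without L-histidinol TYMS read 11.02 with vehicle, 9.91 with osimertinib, 10.67 with alpelisib and 8.51 with both drugs, and with L-histidinol 9.85, 8.72, 9.54 and 8.20 in the same order. TYMS, thymidylate synthase, was lower with L-histidinol than without it on every drug treatment, and fell by 2.08 ± 0.17 with both drugs. TK1 read 9.51 and 8.89 on the vehicle arrays without and with L-histidinol, 8.98 and 8.44 on the osimertinib arrays, 9.27 and 8.52 on the alpelisib arrays and 8.02 and 7.86 on the combination arrays. TK1, the cytosolic thymidine kinase, fell by 0.49 ± 0.11 with osimertinib (adjusted p = 0.00606) and by 1.26 ± 0.11 with both drugs, so that most of its fall came between the osimertinib and the combination arrays.

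Chromatin duplication genes rebuild nucleosomes and copy DNA methylation behind the fork, and all 6 fell with osimertinib (median -1.21) and with both drugs (median -2.11). HELLS, CDCA7 and DNMT1 were the 3 of 6 called lower with alpelisib, against 4.38% of all genes. Without L-histidinol CDCA7 read 9.42 with vehicle, 8.10 with osimertinib, 9.10 with alpelisib and 6.54 with both drugs, and with L-histidinol 8.89, 7.23, 8.44 and 6.23 in the same order. CDCA7, which works with the remodeller HELLS, fell by 2.77 ± 0.11 with both drugs and by 1.28 ± 0.11 against osimertinib alone, and the combination arrays were below all others. A dim probe set of CDCA7 (mean log2 of 3.46) differed by 0.03 in the latter comparison. The UHRF1 signal was 10.79 with vehicle, 10.62 with alpelisib, 9.67 with osimertinib and 8.24 with both drugs in the absence of L-histidinol, against 10.67, 10.16, 9.09 and 8.08 in its presence. UHRF1, which brings the maintenance methyltransferase to hemimethylated DNA, fell by 2.57 ± 0.10 with both drugs (adjusted p = 2.20e-08). DNMT1 read 10.29 and 9.90 on the vehicle arrays without and with L-histidinol, 9.66 and 9.22 on the osimertinib arrays, 9.96 and 9.64 on the alpelisib arrays and 9.28 and 9.14 on the combination arrays. DNMT1, that methyltransferase, fell by only 0.89 ± 0.08, and its osimertinib array with L-histidinol lay below the combination array without it. HELLS (-2.38), CHAF1A (-1.84) and CHAF1B (-1.51), the last 2 being subunits of chromatin assembly factor 1, completed the group.

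The 3 checkpoint, turnover and repair genes had the largest median fall with both drugs, -3.01. Without L-histidinol DTL read 9.30 with vehicle, 7.55 with osimertinib, 9.11 with alpelisib and 5.92 with both drugs, and with L-histidinol 9.37, 7.05, 8.76 and 6.53 in the same order. DTL, a substrate receptor of the ubiquitin ligase that removes CDT1 in S phase, fell by 3.11 ± 0.20 with both drugs and by 2.04 ± 0.20 with osimertinib, and the groups did not overlap. The EXO1 signal was 8.09 with vehicle, 7.62 with alpelisib, 6.31 with osimertinib and 4.63 with both drugs in the absence of L-histidinol, against 7.75, 6.99, 5.98 and 5.19 in its presence. EXO1, an exonuclease of mismatch repair, fell by 3.01 ± 0.21 with both drugs, 8.07-fold. CDC25A read 7.95 and 7.56 on the vehicle arrays without and with L-histidinol, 6.31 and 5.82 on the osimertinib arrays, 7.54 and 6.87 on the alpelisib arrays and 5.35 and 5.08 on the combination arrays. CDC25A, a phosphatase that activates cyclin-dependent kinases, fell by 1.69 ± 0.11 with osimertinib and by 0.55 ± 0.11 with alpelisib (adjusted p = 0.00828), the smallest adjusted p of the 49 in both comparisons.

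Of the E2F factors, E2F1 and E2F8 fell with osimertinib and all 3 with both drugs. None was called with alpelisib, near the 4.38% of all genes called lower. Without L-histidinol E2F1 read 7.77 with vehicle, 6.96 with osimertinib, 7.39 with alpelisib and 6.30 with both drugs, and with L-histidinol 7.49, 6.32, 7.13 and 6.18 in the same order. E2F1, an activator, fell by 1.39 ± 0.12 with both drugs. The E2F2 signal was 5.66 with vehicle, 5.68 with alpelisib, 5.23 with osimertinib and 4.67 with both drugs in the absence of L-histidinol, against 5.38, 5.26, 5.11 and 4.85 in its presence. E2F2, also an activator, was the only gene of the 49 not called with osimertinib (-0.34 ± 0.14, adjusted p = 0.0910) and changed by -0.76 ± 0.14 with both drugs (adjusted p = 8.87e-04). Its probe set was itself rather dim (mean log2 of 5.23). Dimmer probe sets of E2F2, at 4.31 and 4.04, differed by -0.04 and -0.18 with both drugs, so its fall rests on the probe set used. E2F8 read 8.58 and 7.75 on the vehicle arrays without and with L-histidinol, 7.44 and 7.25 on the osimertinib arrays, 8.26 and 7.55 on the alpelisib arrays and 6.54 and 6.63 on the combination arrays. E2F8, an atypical member that represses E2F targets, fell by 1.58 ± 0.18 with both drugs.

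Adding alpelisib to osimertinib lowered 36 of 49 genes below osimertinib alone (median -0.62, 7.41% of all genes called lower), among them 8 of 10 licensing, 5 of 6 firing, 10 of 17 fork, all 4 nucleotide supply, 4 of 6 chromatin, all 3 checkpoint and repair, and 2 of 3 E2F genes. Of these falls 9 were 2-fold or more. Against alpelisib alone the combination was lower for all 49 (median -1.39, 14.4% of all genes called lower). Osimertinib was lower than alpelisib for 42 of 49 (median -0.76, 5.51% of all genes called lower), the others being CHAF1B, E2F2, E2F8, POLA1, POLD1, RPA3 and TK1. Without the osimertinib array that lacked L-histidinol the count below osimertinib alone was 11 (1.94% of all genes called lower), and without the alpelisib array that lacked it or the osimertinib array that had it the count for osimertinib against alpelisib was 12 or 14 (1.30% or 1.57%).

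Whether both drugs together went further than the sum of each was read as the departure from additivity, the combination minus osimertinib minus alpelisib plus vehicle. Over both L-histidinol levels its median was -0.30, against -0.02 for all genes. It lay below 0 for 44 of 49 genes, against 10905 of all 19775, and 0 of 49 were called (0.0303% of all genes called lower). At an unadjusted p below 0.05 there were 15 of 49, all lower, against 8.84% of all genes. The smallest limma adjusted p was 0.0835, for UHRF1 (-0.88 ± 0.14). For the fit with all 2-way terms that follows, the variance prior was estimated on that fit, which has 1 residual degree of freedom. A fit with all 2-way terms called 23 of 49 (4.72% of all genes called lower), leaving out the combination array with L-histidinol 14 (0.319%), and leaving out the vehicle array with L-histidinol 1 (0.0607%).

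Each L-histidinol level gives 1 value of the departure for a gene. Without L-histidinol it was below 0 for 48 of 49 genes, with a median of -0.58, against 54.0% of all genes, with a median of -0.02. With L-histidinol it was below 0 for 25 of 49, with a median of -0.01, against 54.4% of all genes. DTL went from -1.45 to 0.10, MCM10 from -1.47 to -0.08, CDC6 from -1.18 to 0.10 and RRM2 from -1.12 to -0.25. CDCA7 (-1.25 and -0.54), UHRF1 (-1.26 and -0.50) and HELLS (-0.73 and -0.51) were below 0 at both levels, as MCM10 and RRM2 were. So were further genes of other roles, among them E2F8 (-0.59 and -0.42) and PCNA (-1.27 and -0.38). The difference between the levels leaves no residual degree of freedom and was not tested. The alpelisib array pairs and the L-histidinol differences by drug treatment given below are read from these same arrays. They are other views of the same values, not separate findings.

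Read as single array pairs, the median difference of alpelisib alone from vehicle was -0.31 without and -0.39 with L-histidinol. On top of osimertinib the difference was -0.91 without and -0.41 with L-histidinol. MCM5 was 0.04 lower with alpelisib than with vehicle and 1.32 lower with both drugs than with osimertinib when L-histidinol was absent, against 0.34 and 0.40 when it was present. CDT1 was 0.91 lower with both drugs than with osimertinib in the absence of L-histidinol and 0.11 higher in its presence, the only gene of the 49 above 0 there.

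**Figure D3:**
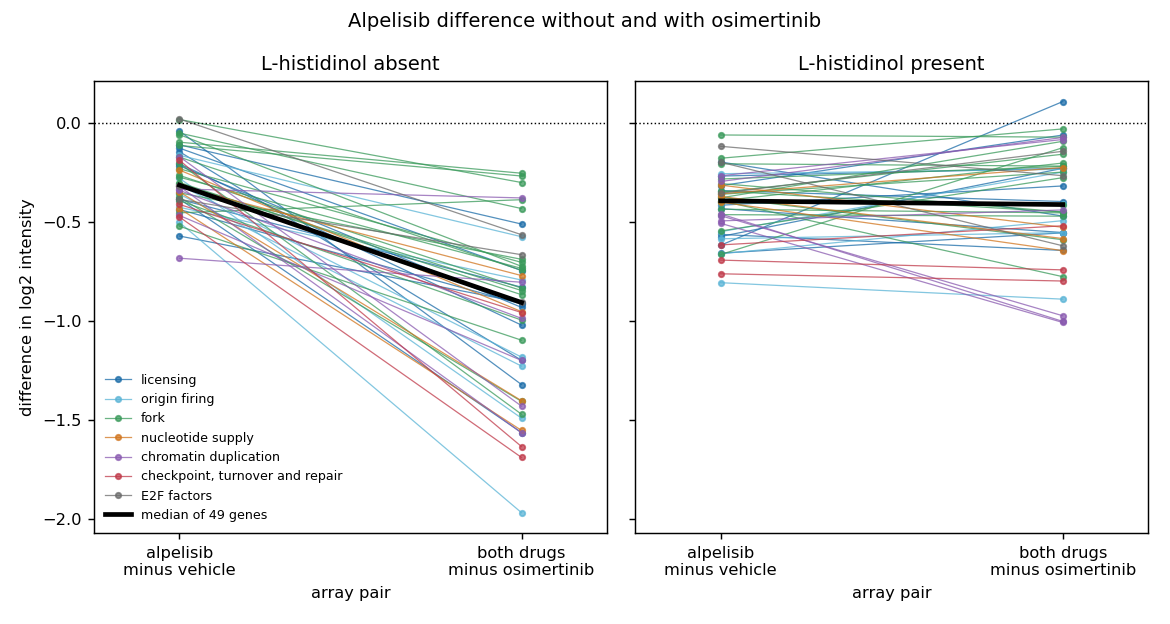
Difference in log2 intensity (vertical axis) for alpelisib minus vehicle and for both drugs minus osimertinib, without L-histidinol on the left and with it on the right; each thin line is 1 of the 49 genes, coloured by role, and the thick line is their median. The median line runs from -0.31 to -0.91 on the left and from -0.39 to -0.41 on the right.

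L-histidinol over the 4 drug treatments lowered 29 of 49 genes, with a median of -0.33 (9.17% of all genes called lower and 11.4% higher), and none was called higher. Called lower were 6 of 10 licensing, 3 of 6 firing, 9 of 17 fork, 3 of 4 nucleotide supply, 5 of 6 chromatin, 1 of 3 checkpoint and repair, and 2 of 3 E2F genes. The largest falls were those of TYMS (-0.95 ± 0.12, limma adjusted p = 3.38e-04), GINS2 (-0.70 ± 0.13), MCM5 (-0.68 ± 0.11), RRM2 (-0.63 ± 0.11) and CDCA7 (-0.59 ± 0.08). Nucleotide supply, with 4 genes, had the lowest median of the roles, -0.57, against -0.41 for licensing and -0.30 for fork genes. The 8 other deoxynucleotide enzymes described below had a median of 0.11, with 0 called lower and 1 higher, the latter near the share of all genes. PRIM1 (0.27 ± 0.11), POLD3 (0.09), RFC4 (0.08), POLA1 (0.04) and PRIM2 (0.02) lay above 0 and were not called. DTL (-0.05 ± 0.14), among the lowest with both drugs, was also not called.

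The L-histidinol count depends on which arrays enter. It was 41 when 1 or the other combination array was left out and 17 lower without any 1 of the osimertinib or alpelisib arrays, with or without L-histidinol. The share of all genes called lower was 9.82% and 9.84% in the former fits and 4.72% to 5.36% in the latter. In the 2 of these fits that left out an alpelisib array, 1 gene was called higher as well. The ratio of 3′ to 5′ signal of the ACTB control was 1.04 to 1.07 on arrays without and 1.10 to 1.15 on arrays with L-histidinol, while that of GAPDH was 0.978 to 1.01 and 0.966 to 0.982; its part in the result was not tested. Of the 8 proliferation markers and cyclins, 1 was called lower with L-histidinol (median -0.12), a share near the 9.17% of all genes.

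By drug treatment, the median L-histidinol difference of the 49 genes was -0.39 with vehicle (46 below 0), -0.57 with alpelisib (48 below 0), -0.51 with osimertinib (45 below 0) and 0.07 with both drugs (21 below 0). The medians of all genes in these 4 pairs lay between -0.01 and 0.01, and 50.2%, 51.3%, 50.3% and 48.4% of all genes were below 0. The 21 of 49 with both drugs (42.9%) thus lay near the share of all genes. TYMS differed by -1.17 with vehicle, -1.14 with alpelisib, -1.19 with osimertinib and -0.31 with both drugs. GINS2 differed by -0.76, -0.89, -1.11 and -0.03 in the same order, and MCM5 by -0.53, -0.83, -1.14 and -0.21. All 3 were lower with L-histidinol in each pair, by the least with both drugs. Licensing genes had a median of -0.39 with vehicle and 0.04 with both drugs, fork genes -0.40 and 0.11, and nucleotide supply genes -0.71 and -0.09.

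**Figure D4:**
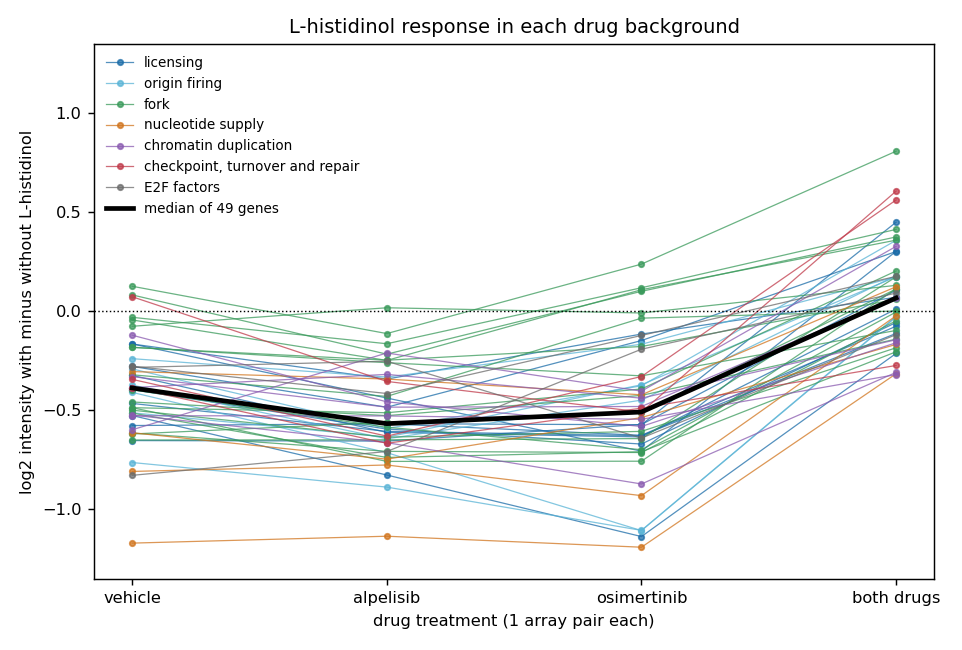
Log2 intensity with minus without L-histidinol (vertical axis) in each of the 4 drug treatments (horizontal axis, 1 array pair each); each thin line is 1 of the 49 genes, coloured by role, and the thick line is their median. The median lies at -0.39, -0.57 and -0.51 in the first 3 and at 0.07 with both drugs.

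A change of the L-histidinol response by a drug was tested as an interaction in the fit with all 2-way terms. The fitted interaction had a median of 0.26 for osimertinib and 0.20 for alpelisib, and 0 of 49 genes were called for either drug (0% of all genes called higher in both). Each value is averaged over arrays without and with the other drug, so it does not describe either drug alone. Among single pairs, the median L-histidinol difference was -0.39 with vehicle, -0.51 with osimertinib alone and -0.57 with alpelisib alone. Only with both drugs was it above 0, at 0.07. At an unadjusted p below 0.05 there were 13 of 49 for osimertinib, all higher, against 8.36% of all genes, and 3 of 49 for alpelisib, all higher, against 5.05%. E2F8 had the largest value with osimertinib, 0.72 (limma adjusted p = 0.169), and CHAF1B with alpelisib, 0.56 (adjusted p = 0.929). Moderated with a prior estimated on this fit, which has 1 residual degree of freedom, the counts were 16 and 6, against 2.91% and 0.784% of all genes called higher.

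Of the other genes of these pathways that were listed by name, 72 are described here. With both drugs 59 of 72 were lower and 5 higher (median -0.79), with osimertinib 55 and 5 (median -0.48), with alpelisib 20 and 3 (median -0.23), and with L-histidinol 13 and 13 (median -0.01). Of all genes 19.2% were called lower and 21.4% higher with both drugs, and 14.0% and 16.4% with osimertinib. With alpelisib these shares were 4.38% and 7.08%, and with L-histidinol 9.17% and 11.4%. Of 31 other subunits and regulators of replication, 26 were lower and 1 higher with both drugs. DSCC1, of the alternative clamp loader for cohesion (-2.66 ± 0.18), and WDHD1, which links helicase and polymerase alpha (-2.12 ± 0.16), fell most, and POLD4, the smallest subunit of polymerase delta, rose (1.15 ± 0.06), opposite to POLD1 and POLD3.

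Among 8 other enzymes of deoxynucleotide supply, 4 were lower and 2 higher with both drugs, the latter a share near the 21.4% of all genes called higher. Lower were DTYMK, thymidylate kinase (-1.27 ± 0.10), DCK, DUT and DCTD. Higher were TK2, the mitochondrial thymidine kinase (0.90 ± 0.10), and RRM2B, the reductase subunit induced by DNA damage (0.26 ± 0.09). With L-histidinol 0 of the 8 were called lower and 1 higher (median 0.11), the latter near the 11.4% of all genes called higher. Of 16 genes of purine and pyrimidine synthesis from small precursors, 15 were lower with both drugs, led by CTPS1, CTP synthase (-1.94 ± 0.13), and PFAS (-1.54 ± 0.09). With L-histidinol 3 of these 16 were lower and 4 higher, against 9.17% and 11.4% of all genes. PRPS1 fell (-0.75 ± 0.05) and GART rose (0.40 ± 0.05) the most. PRPS1 makes the ribose phosphate donor of nucleotide synthesis, and GART carries several steps of purine ring assembly.

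Of 7 other chromatin assembly genes, 6 were lower with both drugs, led by the histone chaperones ASF1B (-1.72 ± 0.15) and NASP (-1.25 ± 0.11). Of 10 other E2F and pocket protein genes, 8 were lower and 2 higher with both drugs, the latter a share near that of all genes. RBL1, a pocket protein of cycling cells (-1.43 ± 0.11), and TFDP1, the dimer partner of E2F (-1.22 ± 0.08), fell, and RBL2, the pocket protein of resting cells, rose (1.14 ± 0.08). With L-histidinol 5 of the 10 were higher and 2 lower, against 11.4% and 9.17% of all genes. E2F5 (0.56 ± 0.07) and E2F7 (0.44 ± 0.05) were among those higher, while E2F1 and E2F8 of the 49 were lower (-0.32 ± 0.08 and -0.41 ± 0.13).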

How the data were processed

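RNA of 8 NCI-H1975 samples was measured on Affymetrix arrays, 1 for each condition. The authors deposited a signal intensity on a linear scale for each probe set, and the submitters' processing notes name RMA and affy. Their versions were not given in the sources used here. Planned tests assumed log2 values, so log2 of each intensity was taken. Of 54675 probe sets, 62 controls were set aside, 41091 had 1 gene symbol, 1801 several and 11721 none, and those with several or none were left out. By Entrez identifier 41037 of them were found in RefSeq's gene table, where 0 symbols differed. Of 19775 genes, 9252 had 1 probe set, and for the others the one with the highest mean was used.

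Differences were fitted with limma 3.58.1 (R 4.3.3, variance trend with mean intensity) as an L-histidinol effect plus a drug treatment of 4 levels (3 residual and 8.08 prior degrees of freedom). Interactions were fitted with all 2-way terms and moderated with the same prior. Values after ± are standard errors. Scripts were tested on simulated data. Alternatives were the mean of probe sets, leaving out probe sets marked _s_at or _x_at in their name, median centring, quantile normalization and no variance trend. Others were a mean log2 of at least 5, all 2-way terms with a prior estimated on that fit (102.7 prior degrees of freedom), and leaving out each array. The 49 genes, their roles and the other lists were chosen with earlier results of these data known, so their directions are no independent support. Values on every array are given for 26 genes: per role those with the largest and smallest change with both drugs, and the 5 with the largest L-histidinol change. Of the other pathway genes, up to 2 in each direction were named per list. Promoter sequences are RefSeq's (GRCh38.p14).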

Additional observations from a re-analysis of the deposited data

Results flagged for a closer look

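In 6 of the 49 genes the L-histidinol difference was below 0 in each of the 3 array pairs with vehicle, osimertinib or alpelisib and above 0, by 0.25 or more, in the pair with both drugs. These opposite directions rest on 1 array pair each, and the difference was not tested. The arrays are those that gave the departure from additivity at each L-histidinol level, so this is not a separate finding. MCM7 differed by -0.28 with vehicle, -0.15 with osimertinib, -0.48 with alpelisib and 0.30 with both drugs. CDC6 differed by -0.16, -0.71, -0.44 and 0.30 in the same order. For CDT1 the values were -0.39, -0.57, -0.57 and 0.45, and for CDC45 -0.29, -0.38, -0.59 and 0.36. CHAF1B gave -0.60, -0.40, -0.21 and 0.33, and EXO1 -0.34, -0.33, -0.63 and 0.56. Counting any size, 22 of the 49 genes (44.9%) had a difference with both drugs opposite to that of the other 3 pairs, against 11.4% of all genes.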

How the results depend on the processing

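Leaving out 1 array at a time, the number of the 49 genes called was 45 to 49 for osimertinib, 0 to 38 for alpelisib, 49 to 49 for the combination, 11 to 46 for the combination against osimertinib, 48 to 49 for it against alpelisib, 12 to 46 for osimertinib against alpelisib, 0 to 14 for the departure from additivity and 17 to 41 for L-histidinol. For alpelisib (7) the count was 4 with the mean of probe sets, 26 with median centring, 3 without a variance trend, 12 at a mean log2 of at least 5 and 43 with all 2-way terms. Without a variance trend it was 21 for the combination against osimertinib (36) and 17 for L-histidinol (29). With all 2-way terms it was 23 for the departure (0), and 16 and 6 for the L-histidinol interactions with osimertinib and alpelisib (0 each). The 43, 23, 16 and 6 all rest on a prior estimated on that fit, which has 1 residual degree of freedom. Leaving out marked probe sets (_s_at or _x_at), which were used for 20 of the 49 genes, keeps 39 and reads some of them from dim probe sets. Among these 39, beside the 7 reversals that follow, calls were lost for 3 genes with osimertinib, 2 with the combination, 1 for it against osimertinib, 2 against alpelisib, 2 for osimertinib against alpelisib, 1 with alpelisib and 4 with L-histidinol. GINS2 turned to 0.0181 with osimertinib, 0.0662 with the combination, 0.0481 against osimertinib, 0.0539 against alpelisib and 0.00582 for osimertinib against alpelisib, and CHAF1A (0.0352) and CDCA7 (0.0273) turned for the combination against osimertinib. Over single genes and settings, 5199 values kept their side of the threshold, 286 newly passed it and 308 no longer passed it. Another 7, called in the main or the alternative fit, reversed direction. Values called in neither fit are among the 5199 even where their sign changed. The interaction fit with 1 array left out has no residual degree of freedom and was not run. The fit pairs arrays by shared drug treatment. Pairing by culture or replicate was not possible because the labels carry no replicate numbers and each condition is 1 array.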

Other observations

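The 49 genes had 45 further probe sets that were not used, and 42 of these were below 0 for both drugs against vehicle. Of 28 with a mean log2 of at least 5, 26 were below 0 and 24 were lower by 2-fold or more. The exceptions were probe sets of GINS2 (0.07), MCM4 (0.03), RFC5 (-0.29) and CDC25A (-0.69), named after their values were seen; the other bright probe sets of MCM4 were at -2.05, -2.03 and -1.89.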
